A study of Mus musculus with 5 samples.

Results

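The genes described here are 10 epithelial genes: the keratins Krt4, Krt13, Krt5, Krt14, Krt15, Krt8, Krt18 and Krt19, the transcription factor gene Trp63 and the serpin gene Serpinb11. They were chosen by name, and every probe set whose only gene symbol in the platform annotation was one of these names was taken. This gave 20 probe sets for 10 genes, out of 34958 probe sets for 18194 genes with a single symbol. A further probe set that the annotation assigns to both Krt17 and Krt14 was left out, and it lay between 12.1 and 14.9 on all arrays.

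Expression was measured on 5 arrays of whole-lung RNA from naive female mice, 1 array for each strain. The strains were C57 (C57BL/6J), 4B(+/+) and 4B(-/-), which are the wild-type and knockout lines for phosphodiesterase PDE4B, and 4D(+/+) and 4D(-/-), the same for PDE4D. All 4 lines came from a C57BL/6 × 129/Ola background and had been backcrossed to C57BL/6J for 11 generations or more, so C57 is the only group without that history. No mouse had received elastase. Each array holds RNA mixed from 3 lungs that had been selected from 5 per strain, so neither the spread between animals nor the spread between arrays is known, and no difference below has a replicate check or a p-value. The Pde4b probe set with the highest mean read 457 in 4B(-/-) and 438 to 558 elsewhere, and that of Pde4d read 386 in 4D(-/-) and 456 to 523 elsewhere. The labels do not say where the deletions lie relative to these probes, so the values check nothing about the genotypes.

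Keratins are intermediate filament proteins that assemble as pairs of an acidic type I and a basic type II chain. Krt8, Krt18 and Krt19 belong to simple epithelia, which in the lung include airway and alveolar epithelium and the mesothelium. Krt5 and Krt14 are the pair of basal cells, the progenitors of pseudostratified airway epithelium, where Krt15 is also made and where Trp63 encodes the p63 transcription factor. Krt4 and Krt13 pair in the suprabasal layers of non-keratinised stratified epithelia such as that of the oesophagus. Serpinb11 belongs to the clade B serpins. In mice, basal cells lie mainly in the trachea and the largest airways, and whole lung is mostly alveolar tissue.

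The promoter letters of the genes that varied most and of one that hardly varied are shown to let their windows be compared. RefSeq sequences on GRCm38.p6 matched 6 of the 10 genes by symbol, with 7 start sites, and Krt4, Krt15, Krt19 and Trp63 had no entry. Each window is the 250 bases before the start, on the gene's own strand, 5′ to 3′. Capitals mark TGANTCA and CCAAT, which reads ATTGG on the other strand. TGANTCA allows any middle base and is looser than the letters that AP-1 factors bind, TGACTCA or TGAGTCA. Of the marked matches only those in the inner Krt13 window are TGACTCA. Those in the outer Krt13 window and in Serpinb11 have A or T in the middle. Krt13 is shown at its outer start (chr11:100121567-100121816, minus strand) and at its inner start (chr11:100120578-100120827, minus strand), Serpinb11 at chr1:107362064-107362313 (plus strand) and Krt8 at chr15:102004343-102004592 (minus strand).
Krt13 outer: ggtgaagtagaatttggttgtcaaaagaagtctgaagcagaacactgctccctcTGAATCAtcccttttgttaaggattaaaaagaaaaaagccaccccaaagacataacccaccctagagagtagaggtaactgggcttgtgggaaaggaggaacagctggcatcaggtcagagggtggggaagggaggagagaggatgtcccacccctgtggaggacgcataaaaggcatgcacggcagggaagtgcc
Krt13 inner: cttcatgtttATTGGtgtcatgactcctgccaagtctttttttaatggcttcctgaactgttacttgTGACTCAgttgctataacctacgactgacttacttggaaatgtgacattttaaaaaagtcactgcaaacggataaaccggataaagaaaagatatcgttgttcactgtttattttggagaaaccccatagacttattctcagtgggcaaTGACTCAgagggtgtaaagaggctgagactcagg
Serpinb11: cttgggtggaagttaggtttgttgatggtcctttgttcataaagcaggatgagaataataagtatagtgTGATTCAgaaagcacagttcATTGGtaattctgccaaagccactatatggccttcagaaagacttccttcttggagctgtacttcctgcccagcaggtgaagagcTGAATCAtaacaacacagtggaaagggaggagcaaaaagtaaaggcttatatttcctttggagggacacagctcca
Krt8: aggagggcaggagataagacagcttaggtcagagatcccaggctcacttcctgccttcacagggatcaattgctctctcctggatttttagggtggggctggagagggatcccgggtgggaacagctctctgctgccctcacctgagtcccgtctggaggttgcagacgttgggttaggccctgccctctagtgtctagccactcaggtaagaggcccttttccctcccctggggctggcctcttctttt
TGANTCA, which is its own reverse complement, occurred in both Krt13 windows and in Serpinb11, and in none of the windows of Krt5, Krt8, Krt14 and Krt18. Over all 32851 windows of this length 6.75% held it on either strand. In the outer Krt13 window it lay from position -196 to -190 before the start, in the inner one from -183 to -177 and from -34 to -28, and in Serpinb11 from -181 to -175 and from -76 to -70. TATAAA and GGGCGG, searched on both strands, were in none of the 7 windows and in 12.4% and 32.7% of all windows. CCAAT was in the inner Krt13 window and in Serpinb11, and in 33.8% of all windows, and none of these matches overlapped. The motifs were chosen after the expression values were known, and a match of letters is not a site.

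Intensities are on the linear scale the authors deposited, and a value of 64 (log2 of 6) was used as an expression floor below which a value is near background. Where a gene had several probe sets, the one with the highest mean stood for it, and a gene passed when its highest array reached the floor. By this rule 9 of the 10 genes and 12 of the 20 probe sets passed, against 11500 of all 18194 genes. Krt14 was under 64 on every array. Krt13 passed through 4D(+/+) alone, and Trp63 through 4B(+/+) and 4D(+/+) alone. Intensities of different probe sets are not comparable, so levels are read between arrays for the same probe set or the same list of probe sets. A sum over a list is dominated by its brightest probe sets. In whole tissue, fewer cells of a type and less RNA per cell cannot be told apart.

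The squamous keratins stood apart in the PDE4D lines. The brighter Krt4 probe set read 42.9 in C57, 117 in 4B(+/+), 94.5 in 4B(-/-), 466 in 4D(+/+) and 287 in 4D(-/-). Both arrays of the PDE4D lines were above both arrays of the PDE4B lines, and C57 was lowest and under the floor. Krt4 was 3.98-fold higher in 4D(+/+) than in 4B(+/+), and 3.04-fold higher in 4D(-/-) than in 4B(-/-). The other Krt4 probe set kept this order with smaller differences, at 51.1 in C57, 93.3 in 4B(+/+), 82.9 in 4B(-/-), 252 in 4D(+/+) and 193 in 4D(-/-). Krt4 was 10.9-fold higher in 4D(+/+) than in C57 by the first probe set and 4.94-fold by the second. With C57 set to the floor the first became 7.28-fold.

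Krt13, the type I partner of Krt4, had the same split between lines. Its brightest probe set read 7.45 in C57, 9.56 in 4B(+/+), 10.01 in 4B(-/-), 119 in 4D(+/+) and 52.1 in 4D(-/-). Only the 4D(+/+) value lay over the floor, so its 16.0-fold excess over C57 is poorly determined and becomes 1.87-fold against the floor. The other Krt13 probe sets were under the floor throughout and were also highest in the PDE4D lines. One read 25.7 in 4D(+/+) and 15.3 in 4D(-/-), against 7.80 to 9.19 in the remaining arrays. The last read 19.2 in 4D(+/+) and 23.7 in 4D(-/-), against 8.54 to 9.92, and so placed the knockout above its wild type where the other 2 placed it below. Krt13 lies next to Krt15 in the gene order of chromosome 11, and Krt15 lies next to Krt19, and the orders of the 3 genes over the arrays differed.

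Serpinb11 had a different order. It read 71.4 in C57, 175 in 4B(+/+), 55.0 in 4B(-/-), 317 in 4D(+/+) and 119 in 4D(-/-). Each knockout was under its own wild-type line, by 3.18-fold in 4B(-/-) and by 2.66-fold in 4D(-/-), and 4B(-/-) was the lowest array and under the floor. Against the floor the 4B(-/-) difference was 2.73-fold. Among the 9 genes that passed, Serpinb11 was the only one past 1.5-fold in 4B(-/-) against 4B(+/+).

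**Figure D1:**
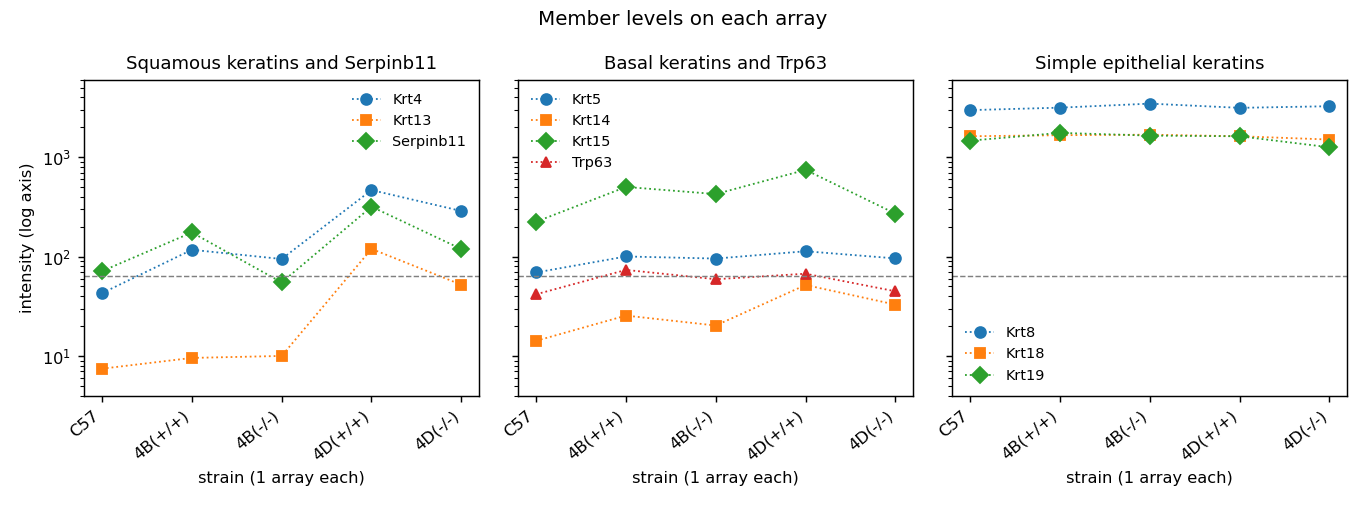
Intensity of the representative probe set of each of the 10 genes (y axis, log scale) on the 5 arrays (x axis, 1 array for each strain, no error bars), with the floor of 64 as a dashed line. Krt4 and Krt13 are highest in 4D(+/+) and 4D(-/-), Krt15 peaks in 4D(+/+) at 744, and Krt8, Krt18 and Krt19 are nearly level; heights of different genes are not comparable, and the dotted lines only join the points of a gene.

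Of the basal genes over the floor, Krt15 varied the most. Krt15 read 224 in C57, 501 in 4B(+/+), 425 in 4B(-/-), 744 in 4D(+/+) and 270 in 4D(-/-), with all arrays over the floor. It was 2.75-fold lower in 4D(-/-) than in 4D(+/+) and 1.18-fold lower in 4B(-/-) than in 4B(+/+), and C57 and 4D(-/-), at the low end, were within 1.21-fold of each other. The Gapdh 3′ to 5′ ratio, a sign of RNA quality, was 1.31 in 4D(+/+), 1.37 in 4B(+/+), 1.57 in 4B(-/-), 1.72 in C57 and 1.77 in 4D(-/-), so the arrays with high Krt15 had low ratios. The actin ratio ran from 1.62 to 1.88 and was 1.83 in 4D(+/+) and 1.86 in 4D(-/-). The part of RNA quality in the result was not tested.

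Krt5 read 69.1 in C57, 100.2 in 4B(+/+), 95.4 in 4B(-/-), 113 in 4D(+/+) and 95.8 in 4D(-/-). C57 was lowest, and the other 4 arrays lay within 1.18-fold of one another. The brightest Krt14 probe set, under the floor throughout, read 14.2 in C57, 25.5 in 4B(+/+), 20.3 in 4B(-/-), 51.7 in 4D(+/+) and 32.9 in 4D(-/-). Another Krt14 probe set kept that order between 16.6 and 31.6, and the last had the same value, 8.45, on all arrays. The order of the brightest Krt14 probe set over the arrays was that of Krt4.

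Trp63, the defining factor of basal cells, was near the floor. Its brightest probe set read 41.7 in C57, 73.4 in 4B(+/+), 59.1 in 4B(-/-), 67.2 in 4D(+/+) and 44.7 in 4D(-/-). Both knockouts were below their wild-type lines, by 1.24-fold in 4B(-/-) and 1.502-fold in 4D(-/-), but with values under 64 set to 64 these became 1.15-fold and 1.05-fold. The other 3 Trp63 probe sets lay between 7.97 and 17.4, and one of them was identical on all arrays.

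The simple epithelial keratins were nearly level. The brightest Krt8 probe set read 2969 in C57, 3143 in 4B(+/+), 3450 in 4B(-/-), 3129 in 4D(+/+) and 3250 in 4D(-/-), a range of 1.16-fold. The other Krt8 probe sets spanned 1.09-fold and 1.004-fold, the latter with the same value in 4 of the 5 arrays. Krt18, the partner of Krt8 and its neighbour on chromosome 15, read 1620 in C57, 1661 in 4B(+/+), 1681 in 4B(-/-), 1620 in 4D(+/+) and 1502 in 4D(-/-). Krt19 had the widest range of these 3 keratins, 1.40-fold, with 1465 in C57, 1752 in 4B(+/+), 1646 in 4B(-/-), 1620 in 4D(+/+) and 1256 in 4D(-/-).

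**Figure D2:**
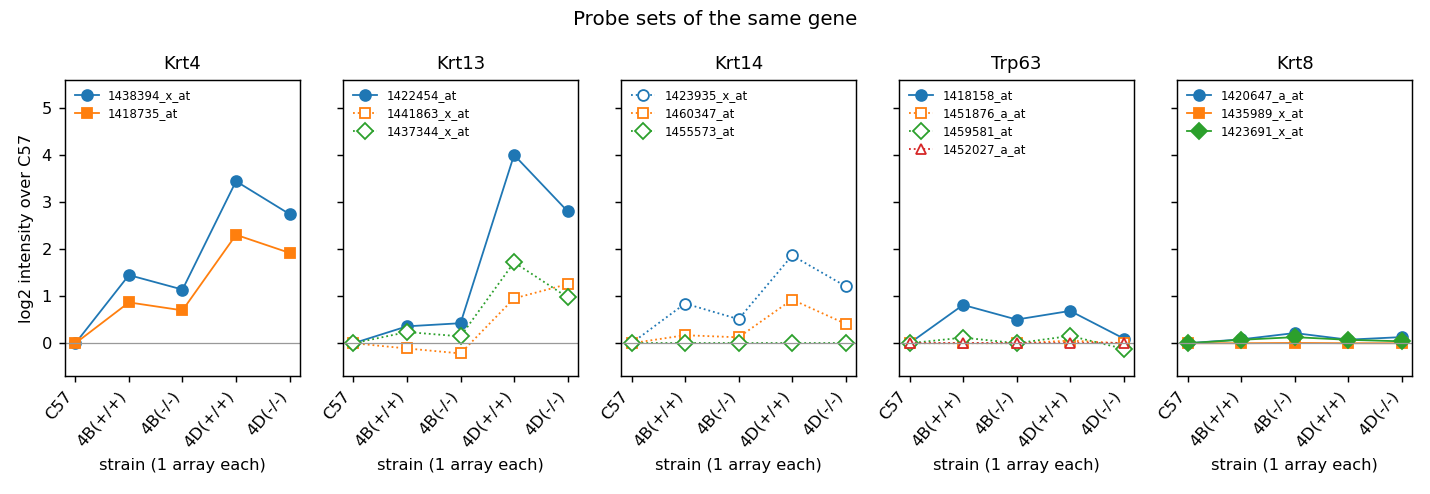
Log2 intensity relative to C57 (y axis) of every probe set of the 5 genes that have more than 1, on the 5 arrays (x axis, 1 array each, no error bars); open symbols and dotted lines are probe sets under 64 on all arrays. The Krt4 probe sets share 1 order with different sizes, 3 Krt13 probe sets are highest in the PDE4D lines but differ in the order of 4D(+/+) and 4D(-/-), and the Krt8 probe sets are flat.

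Each knockout was set against the wild-type line of the same name. At a threshold of 1.5-fold, 0 of the 9 genes were higher in 4B(-/-) than in 4B(+/+) and 1, Serpinb11, was lower, where 0.383% of the 11500 genes were higher and 0.93% lower. The median log2 difference was -0.09, against 0.01 over all genes. Krt4 was 1.24-fold lower, Krt15 1.18-fold lower and Krt8 1.10-fold higher.

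In 4D(-/-), 5 of the 9 genes were lower than in 4D(+/+) and 0 were higher, where 4.53% of all genes were lower and 1.1% higher. The 5 were Krt15 (2.75-fold), Serpinb11 (2.66-fold), Krt13 (2.29-fold), Krt4 (1.62-fold) and Trp63 (1.502-fold), and the median log2 difference was -0.59, against 0.00 over all genes. Krt13 and Trp63 passed the floor only through arrays where they were high, so the count and the median support nothing on their own. Of the 10 genes, 9 were below the wild-type value by any amount, and Krt8 was above it by 1.04-fold. The reference decided the direction for the squamous keratins: against the mean log2 of all 3 wild-type arrays Krt4 was 2.16-fold higher and Krt13 2.55-fold higher in 4D(-/-). Without probe sets whose name ends in x_at, which may share probes with other transcripts, Krt4 was 1.30-fold lower than in 4D(+/+).

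**Figure D3:**
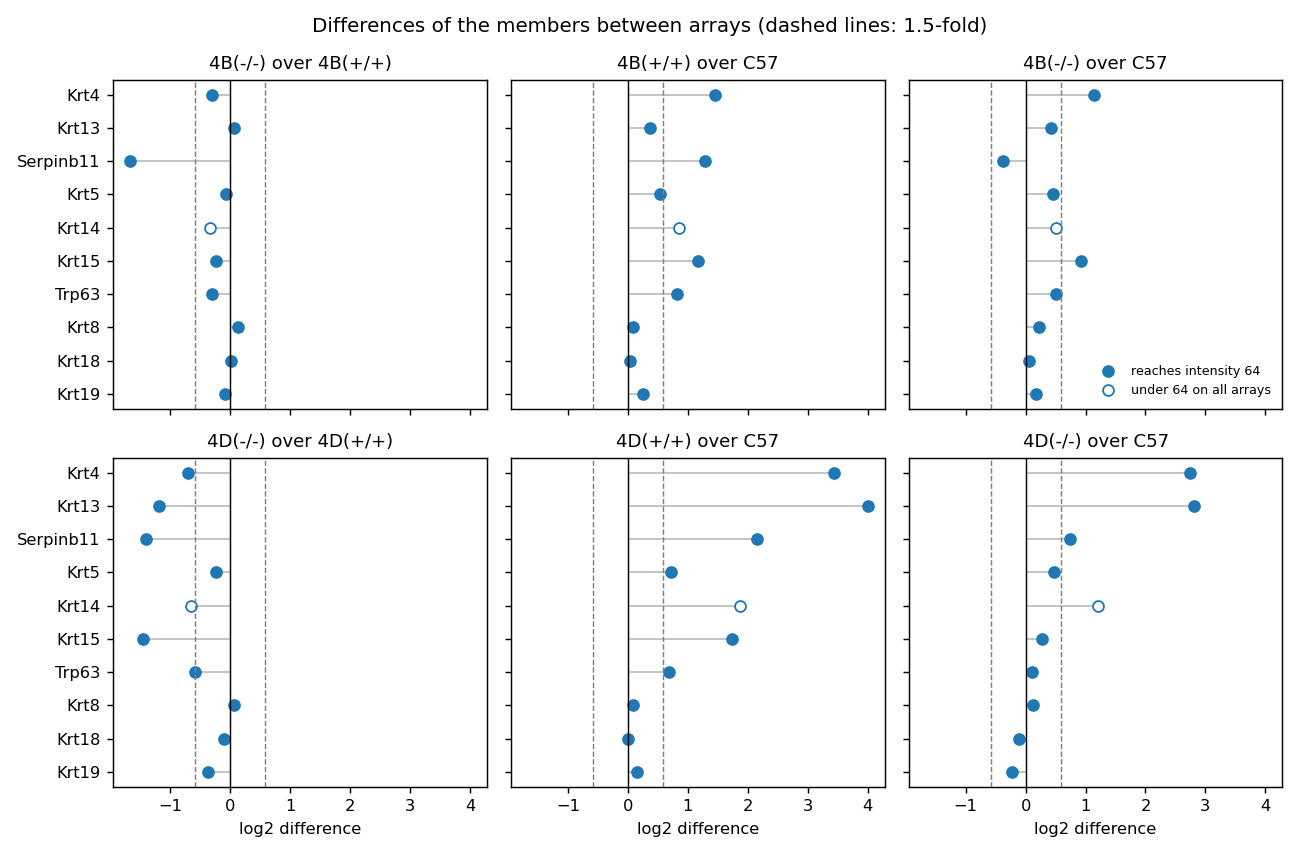
Log2 difference of each of the 10 genes (rows) in the 6 comparisons (panels), with dashed lines at 1.5-fold; each point is a difference of 2 single arrays, and open points are the gene under 64 on all arrays. In 4D(-/-) over 4D(+/+) 9 of the 10 points lie left of 0, whereas against C57 Krt4 and Krt13 lie far to the right in both PDE4D arrays.

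The wild-type lines were set against C57 to see what differed before any knockout. These comparisons share the C57 array, and their wild-type arrays also serve the knockout comparisons. In 4B(+/+), 4 of the 9 genes were at least 1.5-fold higher than in C57 and 0 lower, where 2.23% of all genes were higher and 1.33% lower. Krt4 was 2.73-fold, Serpinb11 2.45-fold, Krt15 2.24-fold and Trp63 1.76-fold higher, and the median log2 difference was 0.54, against 0.00 over all genes. Trp63 passed the floor only through the wild-type lines, so its direction here follows from the filter. With values under 64 set to 64, Krt4 was 1.83-fold and Trp63 1.15-fold higher, and the count was 3.

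In 4D(+/+), 6 of the 9 genes were higher than in C57 and 0 lower, where 4.25% of all genes were higher and 1.24% lower. They were Krt13, Krt4, Serpinb11 (4.44-fold), Krt15 (3.32-fold), Krt5 (1.64-fold) and Trp63 (1.61-fold), with a median log2 difference of 0.71. Krt13 and Trp63 passed the floor only through arrays where they were high, so their direction here follows from the filter. With values under 64 set to 64, Krt13 was 1.87-fold and Trp63 1.05-fold higher, and the count was 5. Krt8, Krt18 and Krt19 were within 1.11-fold of C57.

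The knockouts themselves were also set against C57, as the series' design text describes. In 4B(-/-), Krt4 (2.20-fold) and Krt15 (1.90-fold) were higher and 0 of the 9 genes lower, where 2.53% of all genes were higher and 3.57% lower. The median of the 9 log2 differences was 0.43. In 4D(-/-), Krt13 (6.98-fold), Krt4 (6.70-fold) and Serpinb11 (1.67-fold) were higher and 0 lower, where 1.37% of all genes were higher and 0.791% lower. Here the median was 0.27. The Krt13 excess rests on values under the floor on both arrays. Against the floor Krt4 was 4.49-fold higher in 4D(-/-) and 1.48-fold higher in 4B(-/-).

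The other keratins over the floor stayed within 1.5-fold. The arrays measured 48 keratin genes, 24 on chromosome 11 and 24 on chromosome 15. Of the 10 keratins outside the chosen genes that passed the floor, 0 had a range of 1.5-fold or more over the 5 arrays, and the ranges ran from 1.08-fold to 1.43-fold. The share of all genes with such a range was not computed, so the count does not set these keratins apart. Krt6a, a keratin of stressed and stratified epithelium and a neighbour of Krt5, had the widest range. It read 83.8 in 4D(+/+), 70.4 in 4D(-/-), 68.6 in 4B(+/+) and 58.6 to 58.9 in the others. Its values in 4D(-/-) and 4B(+/+) were nearly equal and near the floor, where Krt4 was 2.45-fold apart between these arrays. The remaining 30 were under the floor, among them Krt6b, which read 26.7 in 4D(+/+), 17.7 in 4D(-/-) and 8.45 to 8.96 elsewhere. Krt17, a keratin of basal cells, read 23.9 in C57, 38.4 in 4B(+/+), 47.1 in 4B(-/-), 63.1 in 4D(+/+) and 31.3 in 4D(-/-), so 4D(-/-) lay below both PDE4B arrays. Krt6b, Krt17 and the keratin counts were added after their values were seen.

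Other genes of stratified and basal epithelium were taken from lists. Of 37 measured squamous genes outside the chosen ones, 25 were under the floor on all arrays, among them the cornification genes Ivl, Lor, Flg and Sprr3. Of the 12 that passed, 3 were at least 1.5-fold higher in 4D(+/+) than in C57 and 0 lower. Over all genes 4.25% were higher and 1.24% lower. In 4D(-/-) 2 of the 12 were lower than in 4D(+/+), against 4.53% of all genes. Calml3, a calmodulin-like protein of epithelia, read 219 in C57, 281 in 4B(+/+), 280.1 in 4B(-/-), 467 in 4D(+/+) and 268 in 4D(-/-). Lgals7, the galectin of stratified epithelia, read 99.6 in 4D(+/+) and 36.6 to 59.1 on the other arrays. Pkp1, a desmosomal plaque protein, read 81.3 in 4D(+/+) and 52.7 to 63.8 elsewhere. Lgals7 and Pkp1 passed the floor through 4D(+/+) alone, so their direction in these counts follows from the filter. The counts therefore support nothing on their own. Anxa8, an annexin of squamous epithelia, read 596 in 4B(+/+), 1.51-fold above C57. Unlike Krt4, none of these 4 genes had both PDE4D arrays above both PDE4B arrays.

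Of 13 measured basal cell genes outside the chosen ones 10 passed the floor. Aqp3, a water channel of basal cells, was the only one at least 1.5-fold higher in 4D(+/+) than in C57, and Snai2 the only one lower. The shares over all genes were 4.25% higher and 1.24% lower, so 1 gene each way says little. Aqp3 read 144 in C57, 204 in 4B(+/+), 197 in 4B(-/-), 278 in 4D(+/+) and 156 in 4D(-/-), and was 1.78-fold lower in 4D(-/-) than in 4D(+/+). This is the order of Krt15. Lama3 of the same list ran the other way, lowest in 4D(+/+) at 540 and highest in 4D(-/-) at 787. The summed intensity of the 10 genes ran from 7070 in 4D(+/+) to 8381 in 4D(-/-), and their median log2 difference from C57 was -0.09 in 4D(+/+) and 0.11 in 4D(-/-). Among 17 genes of simple epithelial keratins and junctions, 0 passed 1.5-fold in either knockout comparison. Over all genes 0.383% were higher and 0.93% lower in 4B(-/-), and 1.1% and 4.53% in 4D(-/-), so this count says little.

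Markers of tissues beside the lung differed between the same arrays. All 11 skeletal muscle genes over the floor were higher in 4D(+/+) than in C57, with summed intensities of 4621 in C57, 9001 in 4B(+/+), 4303 in 4B(-/-), 36289 in 4D(+/+) and 9319 in 4D(-/-). The 12 genes of stomach and salivary or airway glands summed to 31816, 50070, 26852, 67503 and 39680 in the same order of arrays, and the 4 thyroid and parathyroid genes to 5329, 11227, 991, 17016 and 4344. All 3 lists peaked in 4D(+/+), as did 6 of the 10 chosen genes, namely Krt4, Krt13, Krt5, Krt14, Krt15 and Serpinb11. In 4D(-/-) Krt4 was 2.45-fold over 4B(+/+), where the muscle sums of these arrays were 9319 and 9001. In the gland list Wfdc18 read 469 in C57, 837 in 4B(+/+), 104 in 4B(-/-), 3209 in 4D(+/+) and 1659 in 4D(-/-), so both PDE4D arrays were above both PDE4B arrays, as for Krt4. Other genes of that list did not share this split. Lipf, Dmbt1 and Prpmp5 read 5056, 1544 and 17.2 in 4D(-/-), below 9517, 1890 and 30.3 in 4B(+/+). The gastric lipase Lipf read 234 in 4B(-/-) and 5056 to 13730 elsewhere, and Serpinb11 was also lowest there. The part of such tissue in the keratin differences was not tested.

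The 9 cartilage genes, which could mark tracheal or bronchial wall, summed to 461 in C57, 1916 in 4B(+/+), 1209 in 4B(-/-), 1063 in 4D(+/+) and 1086 in 4D(-/-). The full order differed from that of each of the 10 genes. Trp63 was likewise lowest in C57 and highest in 4B(+/+). Krt4, Krt13, Krt5, Krt14, Krt15 and Krt8 were also lowest in C57, and Krt18, Krt19 and Serpinb11 were not. The part of airway wall in the values of the 10 genes was not tested. The 4 mesothelial genes other than keratins summed to between 1198 and 1520. Msln of mesothelium alone followed Krt15, at 418 in 4D(+/+), 370 in 4B(+/+), 309 in 4B(-/-), 200 in C57 and 186 in 4D(-/-), except that C57 and 4D(-/-) changed places. The thymus list, whose epithelium carries Krt5 and Krt8, summed to 1464 in 4B(-/-) and 453 to 795 elsewhere, and its part in the Krt5 and Krt8 values was not tested. Its epithelial genes Ccl25 and Prss16 also peaked in 4B(-/-), at 231 against 37.1 to 108 and at 143 against 33.8 to 84.7. Foxn1 and Psmb11, other epithelial genes of that list, were under the floor on all arrays. In lists of lung epithelium, 0 of 8 alveolar type 1, 0 of 9 alveolar type 2 and 0 of 6 ciliated cell genes passed 1.5-fold in either knockout comparison. Of 8 club cell genes, 2 were lower in 4D(-/-). The shares over all genes were 0.383% higher and 0.93% lower in 4B(-/-), and 1.1% and 4.53% in 4D(-/-). Counts of 0 in lists this short therefore say little.

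**Figure D4:**
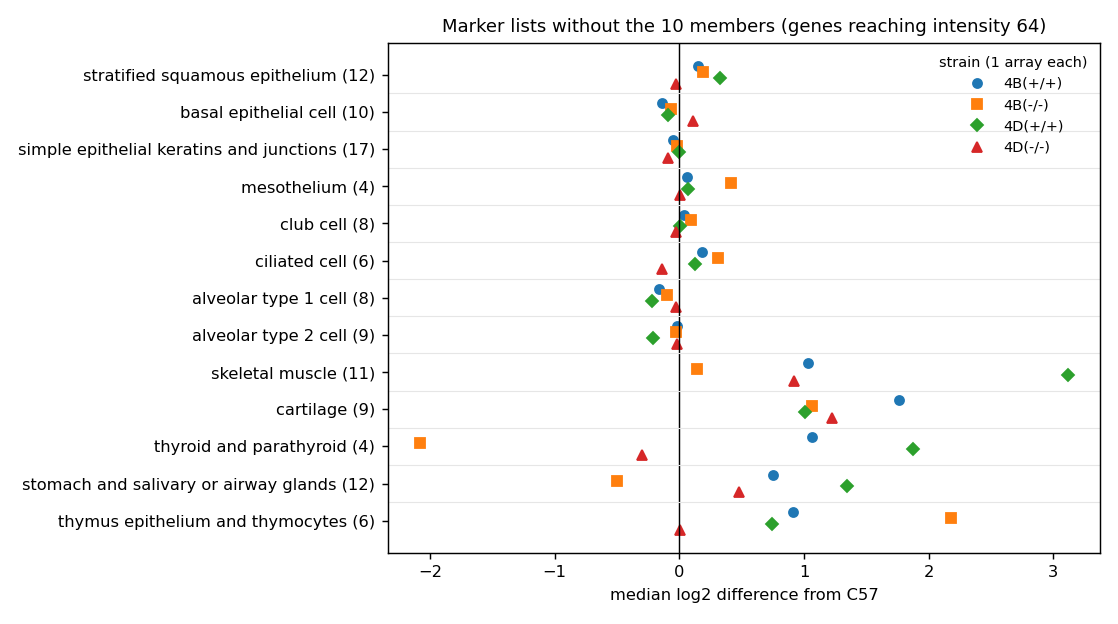
Median log2 difference from C57 (x axis) of each marker list without the 10 genes (rows, number of genes over the floor in brackets) in the other 4 arrays (symbols, 1 array each). In 4D(+/+) skeletal muscle reaches 3.12, thyroid and parathyroid 1.87 and the squamous list 0.33, while the club, ciliated and alveolar lists lie between -0.22 and 0.31 on all arrays.

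The genes most like each chosen gene were found by the root mean square distance between log2 profiles, each centred on its own mean over the 5 arrays, among 11491 other genes over the floor. This was done for the 4 genes with a log2 range of at least 1. Nearest to Krt4 were Klhl41 (0.57), Mybpc1 (0.60), Acta1 (0.61), Ckm (0.63) and Myot (0.63), which are skeletal muscle genes, and Krt13 was at 0.59. Nearest to Krt13 was Krt4 (0.59), followed by Tnnc2 (0.80) and Crisp3 (0.81), and then Myot, Mylpf and Klhl41. Krt13 passed the floor through 4D(+/+) alone and was under it elsewhere. Its nearest genes therefore follow largely from that array and support nothing on their own. Klhl41 read 36.2 in C57, 65.2 in 4B(+/+), 36.7 in 4B(-/-), 240 in 4D(+/+) and 73.5 in 4D(-/-).

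The genes nearest to Krt15 were Kcne3 (0.14), the fatty acid elongase Elovl6 (0.15), Eya4 (0.15), the adipocyte fatty acid binding protein Fabp4 (0.16) and the secretory-pathway gene Agr2 (0.17). Kcne3 and Eya4 passed the floor through 4D(+/+) alone, where Krt15 was highest, so their likeness follows in part from the filter. The log2 range of Krt15 was 1.73, against 3.44 for Krt4 and 4.00 for Krt13. The distance was not scaled to the range, so its size cannot be compared between the chosen genes. Fabp4 read 2634 in C57, 5247 in 4B(+/+), 4512 in 4B(-/-), 6939 in 4D(+/+) and 2292 in 4D(-/-), and Agr2 read 137, 264, 235, 552 and 164 in that order of arrays. Of the other chosen genes Trp63 was closest to Krt15, at 0.36. Serpinb11 was nearest to A2ml1 (0.29), which read 1219 in C57, 2281 in 4B(+/+), 733 in 4B(-/-), 2979 in 4D(+/+) and 1845 in 4D(-/-), then to Atp2a1 (0.34), Myh1 (0.35), Tbx15 (0.36) and Klhl41 (0.36). Tbx15 likewise passed the floor through 4D(+/+) alone, where Serpinb11 was highest. With 5 single arrays all such likeness is a description of these pools.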

How the data were processed

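Whole-lung RNA of 5 mouse strains was hybridised to 1 array per strain. The authors deposited 1 linear intensity per probe set and array, and the submitters' processing notes name RMA, with version and settings not given in the sources used here. RMA equalises the distributions of arrays, and median intensities were 45.4 to 46.6. Of the 20 probe sets described, 6 held tied values between arrays. The number of arrays limits the precision.

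Values were taken to the log2 scale. Of 45101 probe sets 34958 had 1 symbol in the platform annotation, 932 several and 9211 none, and 34754 of the 34958 matched the RefSeq table (assembly GRCm38.p6) by gene identifier. Each gene took the probe set of highest mean, had to reach log2 6 on 1 array, and was called at 1.5-fold. Groups were taken from the sample titles, and 6 comparisons of single arrays were made, with no test. Genes named outside the 10 were up to 4 per list with the largest difference, of 13 lists, in which 171 of 183 symbols were measured, and the 5 of most similar profile, and others are said to be so. Genes and lists were chosen with earlier results of these data known. The alternatives were other floors, fold thresholds, references and probe sets, cyclic loess (limma 3.58.1) and median centring. Leaving out x_at probe sets and setting low values to the floor were added after seeing the data. The counting was tested on simulated data.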

Additional observations from a re-analysis of the deposited data

Results flagged for a closer look

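Some differences between knockout and wild type ran in opposite directions in the PDE4B and PDE4D lines, each from 1 array per group, and whether they differ was not tested. For Krt13 the log2 difference was 0.07 in 4B(-/-), from values under the floor, and -1.20 in 4D(-/-), which is -1.26 apart. For Krt18 they were 0.02 and -0.11, apart by -0.13. With cyclic loess both Krt18 differences were negative, at -0.007 and -0.129, so its opposite direction depended on the scaling. The thymus list median was 1.09 in 4B(-/-) and -0.72 in 4D(-/-), apart by -1.81. The medians of the squamous, mesothelium and ciliated cell lists differed by -0.28, -0.26 and -0.42 on the log2 scale in the PDE4D comparison relative to the PDE4B comparison, and that of the alveolar type 2 list by 0.17.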

How the results depend on the processing

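No paired analysis was possible because the labels give no replicate numbers and each group is 1 array; for the same reason no replicate could be left out. Over all alternatives, 154 of 174 values of the counts and medians were labelled the same as in the main setting. So were 407 of 420 differences of single genes. This label allowed some change. For 4D(+/+) against C57 the number higher fell from 6 to 4 with the median of probe sets. Its median rose from 0.71 to 1.22 without a floor. For 4D(-/-) against 4D(+/+) the number lower fell from 5 to 4 with median centring. With the mean of all 3 wild types as reference, Krt4 (log2 1.11) and Krt13 (1.35) turned to higher in 4D(-/-), 2 genes were higher and 1 lower there, the median became -0.12, and 2 genes were lower in 4B(-/-). For 4D(-/-) against 4D(+/+), the number lower was 3 with a floor of log2 7, 2 with the median of probe sets and 3 at 2-fold, from 5. With the median of probe sets Krt13 and Trp63 did not pass the floor, and at log2 7 neither they nor Krt5 did. At log2 7 Krt4, Krt15 and Serpinb11 kept their calls. The number was 4 with low values set to the floor or without x_at probe sets, and 6 with a floor of log2 5 or none. The median of that comparison was -0.53 with the floor of log2 7, -0.37 with the median of probe sets, -0.58 with median centring, -0.37 with low values set to the floor and -0.38 without x_at probe sets, all below 1.5-fold. For 4B(+/+) against C57 the median was 0.67 with a floor of log2 5 or none and 0.71 with log2 7. In 4D(+/+) 3 genes were higher than C57 with the floor of log2 7, which tests fewer genes. In 4B(-/-) against C57, 1 gene was higher at 2-fold or with low values set to the floor, and 5 were higher and 1 lower at the lowest threshold. Cyclic loess changed no call. Where a cause is not given by the setting itself, the cause was not tested.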
